A study of Mus musculus with 85 samples.

Results

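Mouse morulae kept without pyruvate and given 20 nM KY-PYR-9, which the labels call a myc inhibitor, were compared with standard morulae of the same age, over all genes of the deposited expression table. The comparison took the 4 libraries labelled as inhibitor-treated morulae without pyruvate and the 6 libraries labelled as standard morulae, out of 85 libraries of the series. All embryos were wild type, of the B6C3F1/J strain, and were collected 78 h after hCG, the hormone given to time ovulation. The standard medium was KSOM with 0.2 mM pyruvate, 0.2 mM glucose and 5 mM L-lactate, and the inhibitor group differed from it in 2 ways at once, the loss of pyruvate and the compound. A further group of 5 libraries of morulae at 78 h, without pyruvate and without the compound, is therefore given beside both. Another 5 libraries, of morulae at 78 h in medium with pyruvate but with lactate at 0 mM, entered the fit, its estimate of the spread and its filter on low values, and are not compared here. Effects of the compound by itself cannot be told apart from effects that need pyruvate to be missing, because no group received the compound in full medium. RNA was read by Smart-seq2, in which cDNA is primed at the poly(A) tail and amplified. How many embryos or cultures went into each library is not given in the sources used here, and each p-value therefore measures the spread between libraries, which may be technical. The inferred depth was 15.9 to 21.6 M reads per library in the inhibitor morulae, 34.0 to 38.0 in the no-pyruvate morulae and 17.9 to 34.1 in the standard morulae.

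MYC is a transcription factor that binds DNA as a dimer with MAX, at the letters CACGTG called an E-box, and is known for promoting ribosome production, nucleotide synthesis and glycolysis. Early mouse embryos depend on pyruvate as a fuel through the first cleavages, and use of glucose increases as they compact into the morula and form the blastocyst. During compaction the blastomeres flatten and polarise, and Hippo signalling then separates outer trophectoderm from the inner cell mass.

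Values are CPM, read counts scaled to 1 total in every library, and changes are log2 differences of CPM plus 1, inhibitor minus standard, tested with limma over 16032 genes at an adjusted p (Benjamini-Hochberg) of 0.05. In the inhibitor morulae, 1959 genes (12.2%) rose and 7559 (47.1%) fell, so that 59.4% passed the test. The median log2 change over all genes was -0.51. Median-ratio scaling, which aligns the typical gene between libraries, moved that median to 0.02 and gave 4406 higher and 3402 lower genes. The direction of the typical gene thus follows the scale, so counts of a gene list are given on the CPM scale and then after median-ratio scaling, and a gene is called firm here only where it passed in the same direction in 5 settings. These are CPM, the median-ratio scale, quantile scaling, a correction for gene length, and CPM without standard libraries 1 and 2. Of all genes tested, 28.4% were firm, 10.8% higher and 17.6% lower. Firm counts of a list are to be read beside these shares, and counts on the CPM scale beside 12.2% higher and 47.1% lower. List counts after median-ratio scaling are to be read beside 4406 higher and 3402 lower of 16032 genes. A list near the shares for its own scale behaved like genes at large. The 4 inhibitor libraries lay wholly above or below all 6 standard libraries for 45.3% of genes.

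At the level of whole libraries the inhibitor morulae were more dominated by their highest genes than the standard morulae. The 100 highest genes took 37.6, 36.4, 37.1 and 34.6% of all reads in the inhibitor libraries, against 24.2 to 34.8% (median 25.6%) in the standard libraries. The difference of 8.80 percentage points gave an exact two-sided permutation p of 0.019, or 0.029 adjusted over 3 such library values. The overlap came from standard library 1, which with 34.8% stood apart from the other standard libraries, followed by library 2 with 30.2%. Without these 2 libraries 1980 genes rose and 8285 fell on the CPM scale. The no-pyruvate morulae averaged 21.8%, early 16-cell embryos at 80 h 33.1% and early 32-cell embryos at 90 h 35.1%. Genes above 1 CPM numbered 11688 to 11964 in the inhibitor libraries, against 12611 to 13275 in the standard libraries, with no overlap. In early 16-cell embryos they numbered 11880 to 12475. Whether fewer cells or less RNA per cell stood behind a lower value cannot be told apart in RNA of whole libraries.

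Each library was also placed on a line from the early 8-cell mean at 66 h (position 0) to the early 32-cell mean at 90 h (position 1), over 6692 genes that differ at least 2-fold between these ends. The inhibitor libraries sat at 0.696, 0.684, 0.667 and 0.689, against 0.286 to 0.430 (median 0.313) in the standard libraries. The difference of 0.353 gave an exact permutation p of 0.0095, the smallest that 4 against 6 libraries allow, or 0.029 adjusted over the 3 values. It was 0.284 after median-ratio scaling. On this line inhibitor morulae thus lay between standard morulae and early 16-cell embryos, which averaged 0.755 ± 0.029 (SD, n = 5). The ends of the line also differ in library make-up. Genes detected with 1 read or less, leaving out those without reads, averaged 1318 in early 8-cell and 2501 in early 32-cell libraries. They averaged 2656 in inhibitor, 1799 in standard and 2570 in early 16-cell libraries. Whether position follows stage or such library differences was not tested. The no-pyruvate morulae were spread over 0.202 to 0.560. Because many genes change along the standard course, each gene was also compared with all 20 standard libraries from 66 to 90 h. For 911 firm genes (5.68% of those tested) all 4 inhibitor libraries lay outside that whole range on both the CPM and the median-ratio scale, 409 (2.55%) above it and 502 (3.13%) below it. These genes are called outside the course in what follows.

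**Figure D1:**
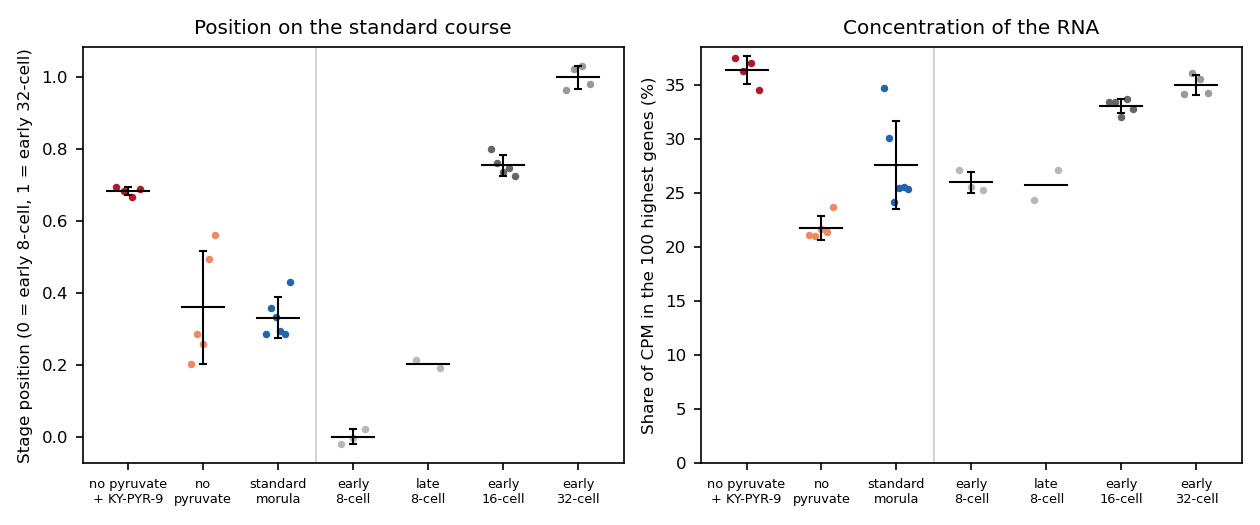
Library values by group, with 1 point per library and bars for group means. They are the position between early 8-cell (0) and early 32-cell (1), and the share of reads in the 100 highest genes (percent). The 4 inhibitor libraries sit between 0.667 and 0.696 in position, above all 6 standard libraries.

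The largest rise among the genes named here was in CT010467.1, annotated as ribosomal RNA, with 10191, 12244, 6914 and 12631 CPM in the inhibitor morulae, against 28.0 to 746 CPM (median 33.6) in the standard morulae. The libraries did not overlap (log2 change 7.10, SE 0.66, adjusted p = 1.2e-08). Standard library 1 held the 746 CPM, and early 16-cell embryos reached 3279 to 7954 CPM. CT010467.1 overlaps AY036118 on the same strand and Gm42418 on the other strand, so the division of reads among them is uncertain.

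Among the genes of MYC and its partners none rose and 8 of 13 fell on the CPM scale, with a median of -0.60 beside -0.51 over all genes; at an unadjusted p of 0.05 the counts were 1 and 9. After median-ratio scaling 2 rose and 2 fell. Myc had 39.3, 49.5, 44.4 and 35.1 CPM in the inhibitor morulae, against 9.37 to 68.2 CPM (median 55.0) in the standard morulae. The groups overlapped, with a log2 change of 0.09 (SE 0.37, adjusted p = 0.84), and the direction depended on the setting: without standard libraries 1 and 2 it was -0.50 (adjusted p = 0.025), and after median-ratio scaling 0.90 (adjusted p = 0.032). The level of Myc mRNA is no check on a compound directed at the MYC protein. Mycn and Mycl, the related family members, averaged 0.902 and 0.569 CPM in the inhibitor morulae, against 1.95 and 1.76 CPM in the standard morulae, levels too low to rank. Mycl was among the 8 that fell on the CPM scale (log2 change -0.76, adjusted p = 0.015) but did not pass after median-ratio scaling (-0.42).

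Max, the dimer partner, had 8.89, 7.51, 9.43 and 9.53 CPM in the inhibitor morulae, against 21.4 to 39.0 CPM (median 28.3) in the standard morulae. It was lower in every inhibitor library, by a log2 change of -1.56 (SE 0.24, adjusted p = 1.1e-05), and early 16-cell embryos were as low (7.08 to 10.6 CPM). In the no-pyruvate morulae it stood at 29.0 to 84.1 CPM. Mnt, a MAX partner that represses E-box genes, averaged 0.410 CPM in the inhibitor morulae and 3.10 CPM in the standard morulae (log2 change -1.43, SE 0.26, adjusted p = 6.5e-05). Max and Mnt were the 2 firm genes of the 13. The level of Mnt was low in both groups. Standard library 1 held 7.22 CPM of Mnt and the other standard libraries 1.81 to 2.73 CPM. Without standard libraries 1 and 2 its log2 change was -1.18. Mxd4, Mxi1, Mlx, Mlxipl and Mga, other members of the network, also fell on the CPM scale, with log2 changes of -0.99, -1.06, -0.93, -0.60 and -0.59, but did not pass after median-ratio scaling, where Mga was at 0.21.

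Textbook MYC targets outside the nucleolus split both ways: 13 of 35 rose and 14 fell (median -0.28), or 18 and 5 after median-ratio scaling, with 8 firmly higher and 4 firmly lower. Cad, which starts pyrimidine synthesis, had 20.7, 20.1, 20.2 and 21.1 CPM in the inhibitor morulae, against 67.5 to 111 CPM (median 102) in the standard morulae. All 4 inhibitor libraries were lower and nearly equal (log2 change -2.12, SE 0.15, adjusted p = 3.9e-10), and the no-pyruvate morulae lay between, at 54.1 to 83.5 CPM. Odc1, the first enzyme of polyamine synthesis, averaged 344 ± 19.4 CPM in the inhibitor morulae and 1063 ± 342 CPM in the standard morulae (SD, n = 4 and 6), a log2 change of -1.57. Amd1, another enzyme of polyamine synthesis that was picked after its values were seen, went the other way, with 541 ± 39.1 and 197 ± 40.5 CPM and a log2 change of 1.48 (SE 0.16). Odc1 and Amd1 have 11 and 7 near-identical copies in the annotation, so their reads may be divided. Slc7a5, an importer of large neutral amino acids, averaged 3.00 CPM in the inhibitor morulae and 13.6 CPM in the standard morulae (log2 change -1.86). Nme2, a nucleoside diphosphate kinase, and Apex1, a DNA repair nuclease, rose to 464 and 433 CPM in the inhibitor morulae, against 180.2 and 182 CPM in the standard morulae.

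Of 40 genes of ribosome biogenesis, 7 rose and 21 fell (median -0.48), a balance that turned to 19 and 6 after median-ratio scaling, and 4 and 6 were firm. On the CPM scale 70% of the list passed, beside 59.4% over all genes, whose median was -0.51. Polr1a, the largest subunit of RNA polymerase I, had 11.5, 12.3, 11.1 and 12.4 CPM in the inhibitor morulae, against 28.8 to 53.8 CPM (median 38.2) in the standard morulae. It was lower throughout (log2 change -1.60, SE 0.18, adjusted p = 1.2e-07). Polr1b, the second-largest subunit, averaged 42.8 and 115 CPM, and Pes1, needed to process the large-subunit rRNA, 13.4 and 45.1 CPM, in inhibitor and standard morulae.

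The promoters of 3 genes that moved by at least 1.5 on the log2 scale show where an E-box can stand and were chosen because they hold one, 2 of genes that rose (Ldha and Wsb1) and 1 of a gene that fell (Pard6b). They are the 250 bases before the RefSeq start on GRCm38.p6, written in the direction of the gene, with each CACGTG in capitals. The windows are chr7:46845554-46845803 on the plus strand, chr11:79254696-79254945 on the minus strand and chr2:168080754-168081003 on the plus strand.
Ldha: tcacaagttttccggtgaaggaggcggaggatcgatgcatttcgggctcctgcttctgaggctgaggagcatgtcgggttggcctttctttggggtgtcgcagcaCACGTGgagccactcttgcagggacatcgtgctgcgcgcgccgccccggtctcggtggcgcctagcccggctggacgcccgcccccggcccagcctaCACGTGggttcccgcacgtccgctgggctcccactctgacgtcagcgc
Wsb1: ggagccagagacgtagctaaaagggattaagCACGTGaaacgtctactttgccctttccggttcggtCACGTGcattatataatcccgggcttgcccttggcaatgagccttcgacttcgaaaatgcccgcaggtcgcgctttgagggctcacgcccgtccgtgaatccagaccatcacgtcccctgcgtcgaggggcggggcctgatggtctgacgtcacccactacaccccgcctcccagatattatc
Pard6b: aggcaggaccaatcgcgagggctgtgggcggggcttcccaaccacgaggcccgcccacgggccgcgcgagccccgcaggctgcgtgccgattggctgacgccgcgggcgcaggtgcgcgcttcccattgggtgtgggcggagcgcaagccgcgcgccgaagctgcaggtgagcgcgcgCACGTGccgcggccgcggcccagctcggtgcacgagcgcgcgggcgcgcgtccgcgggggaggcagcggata

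CACGTG reads the same on both strands and was found in 6.02% of all 32851 RefSeq windows of this length. Windows existed for 10263 of 16032 tested genes, for 841 of 1959 that rose and for 5385 of 7559 that fell. Among these it was found in 9.82%, 11.1% and 9.64%. For firm genes, 714 of 1725 higher and 2004 of 2823 lower had a window, with shares of 10.9% and 9.48%. Above and below the course 187 of 409 and 363 of 502 had a window, with shares of 10.7% and 8.54%. Most genes that rose thus had no window to search. These shares are a description of letters, not of binding, and were not tested.

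Of 21 genes that handle pyruvate and lactate, 1 rose and 5 fell on the CPM scale, with a median of -0.17 beside -0.51 over all genes. That is 28.6% past the threshold, beside 59.4% over all genes. After median-ratio scaling 11 rose and 3 fell, and with the length trend removed 10 and 3. Ldha, the muscle-type lactate dehydrogenase subunit, had 74.1, 65.2, 50.4 and 62.3 CPM in the inhibitor morulae, against 5.10 to 15.4 CPM (median 12.6) in the standard morulae. Every inhibitor library was above every standard library from 66 to 90 h (log2 change 2.44, SE 0.27, adjusted p = 1.4e-07). The no-pyruvate morulae were at 64.6 to 94.4 CPM, and the inhibitor morulae did not differ from them past the threshold (log2 change -0.42, adjusted p = 0.17). Ldha has 5 near-identical copies in the annotation. Ldhb, the heart-type subunit, averaged 7.49 and 5.49 CPM in inhibitor and standard morulae and did not pass on the CPM scale (log2 change 0.43, adjusted p = 0.14). It passed as higher under all 3 scalings, with 1.17 after median-ratio scaling (adjusted p = 0.00039), 1.16 after quantile scaling and 0.86 with the length trend removed.

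Pdhx, which anchors E3 in the pyruvate dehydrogenase complex, averaged 40.2 ± 3.93 CPM in the inhibitor morulae and 123 ± 42.7 CPM in the standard morulae (SD, n = 4 and 6), a log2 change of -1.50 (SE 0.23, adjusted p = 8.6e-06). Pdp1, a phosphatase that activates the complex, averaged 1.89 and 6.67 CPM (log2 change -1.30, adjusted p = 0.00044). Mpc1 and Mpc2, the mitochondrial pyruvate carrier, averaged 833 and 349.8 CPM in the inhibitor morulae, against 749 and 418 CPM in the standard morulae, and neither passed on the CPM scale. Mpc1, at a log2 change of 0.18, passed as higher after median-ratio scaling (1.00, adjusted p = 0.00015), with the length trend removed (0.66) and without standard libraries 1 and 2 (0.33), but was at -0.05 after quantile scaling. Mpc2 and Pdha1, the catalytic E1 subunit, were at -0.23 and -0.24 and did not pass, but passed as higher after median-ratio scaling, at 0.59 (adjusted p = 0.048) and 0.58 (adjusted p = 0.0033). Pdha1 passed as lower without standard libraries 1 and 2 (-0.41). Slc2a3, a high-affinity glucose transporter, averaged 40.7 CPM in the inhibitor morulae, 618 CPM in the no-pyruvate morulae and 114 CPM in the standard morulae. Its log2 change against standard, -1.19 (adjusted p = 0.037), was -0.39 after median-ratio scaling and then did not pass, whereas against the no-pyruvate morulae it was -3.59 (adjusted p = 2e-06). That comparison called 75.7% of genes, and the one of no-pyruvate with standard morulae 39.4%.

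In glycolysis 2 of 20 genes rose and 10 fell (median -0.50), which became 6 and 3 after median-ratio scaling, and 2 and 3 were firm. On the CPM scale 60% of the list passed, beside 59.4% over all genes. Hk1 and Hk2, the hexokinases that trap glucose in the cell, averaged 6.04 and 12 CPM in the inhibitor morulae, against 25.1 and 37.7 CPM in the standard morulae. Both were lower in every inhibitor library, by log2 changes of -1.86 (SE 0.18) and -1.47 (SE 0.26). Eno1, enolase, had 24.7, 20.7, 19.8 and 25.8 CPM in the inhibitor morulae, against 2.98 to 20.2 CPM (median 9.55) in the standard morulae. It rose with an overlap of libraries (log2 change 1.27, SE 0.36, adjusted p = 0.0048), was at 35.1 to 124 CPM in the no-pyruvate morulae, and has 4 near-identical copies.

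In the tricarboxylic acid cycle and the malate-aspartate shuttle 1 of 25 genes rose and 13 fell (median -0.57), which became 9 and 4 after median-ratio scaling, with 1 and 4 firm. On the CPM scale 56% of the list passed, beside 59.4% over all genes. Sdhb, a subunit of succinate dehydrogenase, had 39.6, 52.4, 44.2 and 46.9 CPM in the inhibitor morulae, against 97.2 to 187 CPM (median 135) in the standard morulae. It was lower throughout (log2 change -1.58, SE 0.16, adjusted p = 3e-08), while the no-pyruvate morulae were higher, at 206 to 265 CPM. Idh1, the cytosolic isocitrate dehydrogenase, averaged 88.9 and 321 CPM and Sucla2, a subunit of succinyl-CoA ligase, 123 and 335 CPM in inhibitor and standard morulae.

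Of the 13 proteins encoded in mitochondrial DNA, 8 rose and none fell (8 and 0 at an unadjusted p of 0.05 too), 7 firmly, with a median of 1.49. After median-ratio scaling 9 rose and none fell. mt-Atp6, a subunit of ATP synthase, had 10548, 9178, 10284 and 5125 CPM in the inhibitor morulae, against 803 to 2058 CPM (median 1332) in the standard morulae. The libraries did not overlap (log2 change 2.67, SE 0.47, adjusted p = 4.7e-05). The no-pyruvate morulae were at 153 to 1239 CPM and early 16-cell embryos at 6597 to 7766 CPM. mt-Nd3 and mt-Co2, subunits of complex I and complex IV, rose by 3.00 and 2.89 on the log2 scale. In the annotation mt-Atp6, mt-Nd3 and mt-Co2 have 1, 1 and 2 near-identical copies, so their reads may be divided. The share of all mitochondrially encoded genes among the reads was 6.04 ± 2.11% in the inhibitor morulae and 3.58 ± 2.52% in the standard morulae (SD, n = 4 and 6) and did not pass (exact permutation p = 0.17). Standard library 1 alone held 8.27%; without it the p was 0.048. Of 72 nuclear genes of the respiratory chain, 12 rose and 37 fell (median -0.43), or 34 and 7 after median-ratio scaling, with 11 firmly higher and 7 firmly lower.

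The translation machinery was divided as well. Of 76 cytosolic ribosomal protein genes 40 rose and 9 fell (median 0.44), or 65 and 1 after median-ratio scaling, and 38 were firmly higher and 1 firmly lower. Rps2, of the small subunit, had 209.6, 203, 159 and 180.4 CPM in the inhibitor morulae, against 54.5 to 78.4 CPM (median 60.9) in the standard morulae. The groups were clearly apart (log2 change 1.54, SE 0.15, adjusted p = 2.8e-08), the no-pyruvate morulae were at 36.0 to 45.9 CPM, and early 16-cell embryos at 151 to 206 CPM. Rps26 behaved alike, with 403 ± 48.2 CPM in the inhibitor morulae and 147 ± 33.4 CPM in the standard morulae (SD, n = 4 and 6). Rps12 was the firm exception, at 1.79 and 13.1 CPM (log2 change -2.25, SE 0.25), and was below the course. Ribosomal protein genes have many near-identical pseudogenes (47 for Rps2), so the division of reads is uncertain. Gene length moved with these results: the median log2 change was -0.20 among the shortest of 5 equal bins of genes and -0.63 among the longest.

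Of 20 aminoacyl-tRNA synthetases, which charge tRNAs, 1 rose and 8 fell (median -0.48), which became 5 and 2 after median-ratio scaling, and 1 and 2 were firm. Aars, for alanine, had 18.9, 17.1, 25.4 and 16.5 CPM in the inhibitor morulae, against 57.0 to 91.6 CPM (median 80.8) in the standard morulae. It was below every standard library from 66 to 90 h (log2 change -1.96, SE 0.16, adjusted p = 2.7e-09). Farsb, a subunit of the phenylalanine enzyme, averaged 241 and 125 CPM and rose (log2 change 1.02, adjusted p = 0.0012).

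In nucleotide synthesis 6 of 24 genes rose and 10 fell (median -0.34), or 11 and 4 after median-ratio scaling, with 6 and 4 firm. Prps1, which makes the ribose donor PRPP for purine and pyrimidine synthesis, had 7446, 8484, 7384 and 9557 CPM in the inhibitor morulae, against 709 to 2237 CPM (median 1647) in the standard morulae. It was above the course (log2 change 2.44, SE 0.22, adjusted p = 8.8e-09), whereas the no-pyruvate morulae were at 1422 to 1919 CPM. Pfas and Impdh1, enzymes of purine and guanine nucleotide synthesis, fell: they averaged 37.4 and 31.3 CPM in the inhibitor morulae, against 283 and 111 CPM in the standard morulae (log2 changes -2.60 and -1.78).

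Of 16 genes of serine and one-carbon metabolism 2 rose and 12 fell (median -1.16), or 2 and 4 after median-ratio scaling, and 2, both lower, were firm. Tdh, threonine dehydrogenase, had 14.5, 14.3, 24.0 and 22.4 CPM in the inhibitor morulae, against 90.5 to 277 CPM (median 185) in the 5 standard libraries with a value. All inhibitor libraries were lower (log2 change -3.15, SE 0.27, adjusted p = 7.2e-09; standard library 1 has no value for this gene). Mthfd2, a mitochondrial folate enzyme, averaged 13.8 and 38.4 CPM. In amino acid metabolism and transport 2 of 24 rose and 11 fell (median -0.52), or 4 and 4 after median-ratio scaling. Glul, glutamine synthetase, averaged 114 and 365 CPM and Slc1a5, a glutamine importer, 2.14 and 10.7 CPM in inhibitor and standard morulae. Both were firmly lower.

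Srebf2, the transcription factor that turns on cholesterol synthesis, had 226, 205, 151 and 191 CPM in the inhibitor morulae, against 14.7 to 37.2 CPM (median 32.9) in the standard morulae. Every inhibitor library was above the course (log2 change 2.69, SE 0.21, adjusted p = 1.4e-09), and the no-pyruvate morulae lay between, at 69.4 to 125 CPM. Fdft1, squalene synthase, averaged 673 ± 47.0 CPM in the inhibitor morulae and 214 ± 69.1 CPM in the standard morulae (SD, n = 4 and 6) and rose by 1.72 on the log2 scale. The antisense overlap of Fdft1 with Ctsb cannot be told apart in an unstranded library. Of the 22 genes of cholesterol synthesis, 4 rose and 7 fell (median -0.33), or 10 and 2 after median-ratio scaling, 2 and 2 firmly.

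Fatty acid synthesis had 12 of 14 genes lower and none higher (median -1.03), beside 47.1% lower and 12.2% higher over all genes. At an unadjusted p of 0.05 the counts were 12 lower and 1 higher. Firmly lower were 2 of the 14, beside 17.6% of all genes. After median-ratio scaling 2 rose and 3 fell. Acaca, which commits acetyl-CoA to fatty acids, averaged 3.56 CPM in the inhibitor morulae and 11.2 CPM in the standard morulae (log2 change -1.40, SE 0.19). Fasn, fatty acid synthase, averaged 10.9 and 25.6 CPM and fell by 1.15, which did not hold after median-ratio scaling (-0.38). In fatty acid oxidation 2 of 17 rose and 9 fell (median -0.57), or 5 and 3 after median-ratio scaling. Etfb, which passes electrons from fatty acids to the respiratory chain, averaged 28.1 CPM in the inhibitor morulae and 91.3 CPM in the standard morulae (log2 change -1.66).

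**Figure D2:**
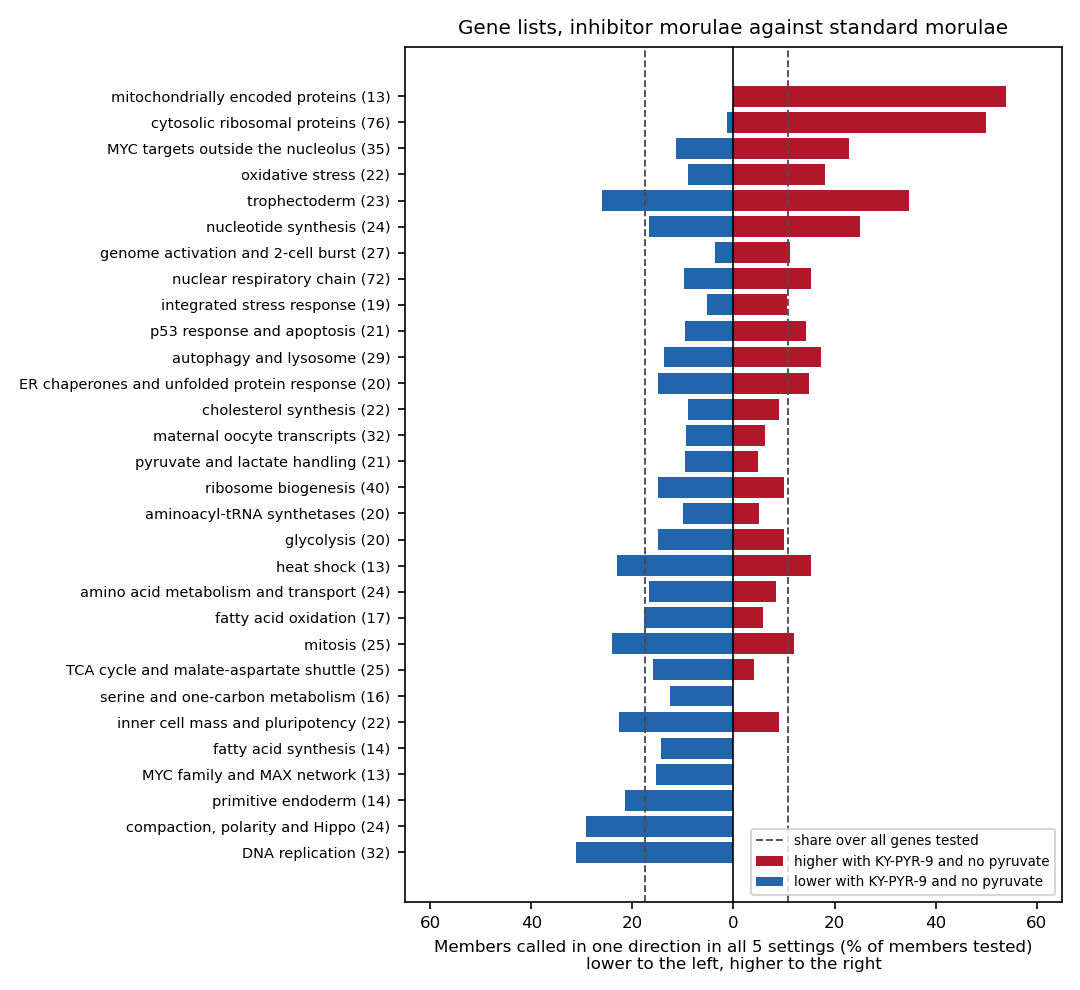
Share of the tested genes of each list that were higher (right) or lower (left) in inhibitor than in standard morulae in all 5 settings, in percent, with the number tested in brackets and dashed lines at the share over all genes (10.8% higher, 17.6% lower). Mitochondrially encoded and cytosolic ribosomal proteins are highest on the right.

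Of 19 genes of the integrated stress response 2 rose and 6 fell (median -0.16), or 6 and 3 after median-ratio scaling. Of 20 ER chaperones and unfolded-protein genes 3 rose and 11 fell (median -0.74), or 6 and 3. Dnajb9, an ER co-chaperone, had 1606, 1524, 1586 and 1907 CPM in the inhibitor morulae, against 197 to 536 CPM (median 341) in the standard morulae. It was above the course (log2 change 2.29, SE 0.20, adjusted p = 4.6e-09), and the no-pyruvate morulae were at 476 to 621 CPM. Pdia3, a disulfide isomerase of glycoprotein folding, averaged 612 and 226 CPM and rose, while Manf and Creld2, small ER proteins that the unfolded protein response turns on, averaged 59.6 and 27.0 CPM in the inhibitor morulae, against 173 and 91.3 CPM in the standard morulae, and fell.

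Of 21 genes of the p53 response 3 rose and 9 fell (median -0.34), or 6 and 2 after median-ratio scaling. Trp53 itself averaged 83.2 ± 13.5 CPM in the inhibitor morulae and 30.0 ± 8.37 CPM in the standard morulae (SD, n = 4 and 6), a log2 change of 1.48 (SE 0.23, adjusted p = 9.1e-06), and early 16-cell embryos were at 82.1 to 106 CPM. Phlda3, a p53 target, and Bcl2l1, which holds back apoptosis, averaged 3.30 and 9.48 CPM in the inhibitor morulae, against 10.8 and 41.3 CPM in the standard morulae, and fell. In oxidative stress 4 of 22 genes rose and 7 fell (median 0.11), or 12 and 2 after median-ratio scaling, all 4 rises firm. Hmox1, heme oxygenase, had 14.4, 15.0, 6.46 and 13.7 CPM in the inhibitor morulae, against 0.417 to 2.79 CPM (median 1.28) in the standard morulae. It rose (log2 change 2.52, SE 0.38, adjusted p = 7.9e-06) but was higher still in the no-pyruvate morulae, at 23.6 to 99.4 CPM. Gpx1, glutathione peroxidase, averaged 774 and 357 CPM and was above the course, and Keap1, which marks the antioxidant regulator NRF2 for degradation, averaged 1.94 and 10.9 CPM.

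Among 13 heat shock genes 3 rose and 6 fell (median -0.37), or 6 and 3 after median-ratio scaling. Hspb1, a small heat shock protein, averaged 43.7 CPM in the inhibitor morulae, 56.8 CPM in the no-pyruvate morulae and 5.94 CPM in the standard morulae (log2 change against standard 2.6, SE 0.29). Hsp90aa1, the stress-inducible HSP90, averaged 4083 and 1589 CPM in inhibitor and standard morulae and rose. Hsph1, another gene of the list, averaged 16.0 and 94.9 CPM and was below the course. Of 29 genes of autophagy and lysosome 8 rose and 10 fell (median 0.05), or 16 and 4 after median-ratio scaling. Ctsa and Ctsl, lysosomal proteases, averaged 2787 and 1086 CPM in the inhibitor morulae, against 1072 and 317 CPM in the standard morulae, and rose. Gabarapl1, an autophagosome protein, averaged 1.99 and 10.7 CPM and was below the course.

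On the CPM scale 22 of 32 genes of DNA replication fell and none rose (median -0.97; 22 and 0 at an unadjusted p of 0.05). After median-ratio scaling 8 rose and 10 fell, and the 10 that fell firmly had no firm rise beside them. Mcm2, of the replicative helicase, had 21.5, 23.6, 28.9 and 23.2 CPM in the inhibitor morulae, against 148 to 2651 CPM (median 268) in the standard morulae. It was below the course (log2 change -3.93, SE 0.51, adjusted p = 1.1e-06), with the 2651 CPM in standard library 1, and was at -3.13 without standard libraries 1 and 2. The no-pyruvate morulae were at 45.7 to 153 CPM. Mcm3 and Mcm5, of the same helicase, averaged 31.0 and 26.6 CPM in the inhibitor morulae, against 117 and 105 CPM in the standard morulae, and early 16-cell embryos had 114 to 148 and 105 to 142 CPM. Pold1, a replicative polymerase, averaged 4.60 and 20.3 CPM (log2 change -1.89, SE 0.21).

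In mitosis 4 of 25 genes rose and 12 fell (median -0.50), which became 11 and 6 after median-ratio scaling, 3 and 6 firmly. Plk1, a kinase of mitotic entry, averaged 62.5 ± 11 CPM in the inhibitor morulae and 246 ± 104 CPM in the standard morulae (SD, n = 4 and 6), and Bub3, of the spindle checkpoint, 109 ± 4.06 and 314 ± 43.8 CPM. The log2 changes were -1.84 (SE 0.26) and -1.51 (SE 0.13). Ube2s, which extends ubiquitin chains for the anaphase-promoting complex and was among the 12 largest falls, averaged 13.6 and 203 CPM (log2 change -3.62, SE 0.31). It overlaps Rpl28 on the other strand.

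Others of the largest falls were Twnk, the helicase that copies mitochondrial DNA, Bag1, an HSP70 co-chaperone, Tcf7l2, a WNT effector, and Gsdme, a pore-forming protein. Twnk had 4.75, 4.34, 6.11 and 3.82 CPM in the inhibitor morulae, against 50.5 to 519 CPM (median 89.5) in the standard morulae. The groups were far apart and the inhibitor libraries below the course (log2 change -4.30, SE 0.40, adjusted p = 1.2e-08). The highest value came from standard library 1; without libraries 1 and 2 the change was -3.65. Twnk overlaps Mrpl43 on the other strand. Bag1 averaged 17.2 and 244 CPM, Tcf7l2 4.48 and 82.3 CPM and Gsdme 3.43 and 59.0 CPM in inhibitor and standard morulae.

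Of 24 genes of compaction, polarity and Hippo signalling 18 fell and none rose on the CPM scale (median -1.13; 19 and 0 at an unadjusted p of 0.05), 7 of them firmly. After median-ratio scaling 4 rose and 8 fell. Pard6b, a polarity protein of the outer surface, had 7.44, 10.4, 11.1 and 7.44 CPM in the inhibitor morulae, against 23.3 to 39.3 CPM (median 36.3) in the standard morulae. It was lower in every library (log2 change -1.76, SE 0.21, adjusted p = 2.8e-07), and the no-pyruvate morulae lay at 13.2 to 25.9 CPM. Prkcz, the atypical protein kinase C of the same complex, averaged 19.7 and 72.7 CPM. Amot and Amotl2, which hold YAP1 outside the nucleus in inner cells, averaged 2.06 and 7.17 CPM in the inhibitor morulae, against 20.1 and 29.6 CPM in the standard morulae. Yap1 averaged 10.3 and 31.4 CPM and fell by 1.48, but was not firm.

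Of 22 genes of inner cell mass and pluripotency 4 rose and 13 fell (median -0.91), or 5 and 6 after median-ratio scaling, 2 and 5 firmly. Pou5f1, which encodes OCT4, had 33.3, 26.3, 52.5 and 34.5 CPM in the inhibitor morulae, against 164 to 261 CPM (median 220.5) in the standard morulae. It was lower throughout (log2 change -2.52, SE 0.20, adjusted p = 1.8e-09), and the no-pyruvate morulae (92.6 to 184 CPM) and early 16-cell embryos (126 to 180.1 CPM) were all above the inhibitor libraries. Tbx3 and Esrrb, regulators of naive pluripotency, averaged 33.5 and 7.92 CPM in the inhibitor morulae, against 231 and 39.0 CPM in the standard morulae. Klf17, a factor of early cleavage, rose, with 144 and 41.5 CPM (log2 change 1.91, SE 0.29).

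The trophectoderm list was mixed, with 8 of 23 genes higher and 11 lower (median -0.55), or 8 and 6 after median-ratio scaling, 8 and 6 firmly. Cldn6, a tight-junction claudin, had 77.6, 65.7, 35.6 and 60.6 CPM in the inhibitor morulae, against 4.93 to 8.33 CPM (median 7.56) in the standard morulae. It was higher throughout (log2 change 2.90, SE 0.26, adjusted p = 9e-09), as were the values of 21.2 to 73.2 CPM in the no-pyruvate morulae. Id2, an inhibitor of bHLH factors, averaged 12.3 CPM in the inhibitor morulae, 14.5 CPM in the no-pyruvate morulae and 1.02 CPM in the standard morulae. Gata3 and Tead4, transcription factors that set up the trophectoderm, fell: they averaged 13.1 and 65.4 CPM in the inhibitor morulae, against 79.5 and 186 CPM in the standard morulae (log2 changes -2.44 and -1.50). In the primitive endoderm list 7 of 14 fell and none rose (median -0.84; 8 and 0 at an unadjusted p of 0.05), 3 of them firmly, or 4 and 1 after median-ratio scaling. Gata6 and Gata4, its transcription factors, averaged 25.2 and 4.05 CPM in the inhibitor morulae, against 129.5 and 16.7 CPM in the standard morulae.

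Genes outside the course, picked for naming after their values were seen, included some that the no-pyruvate morulae shared in level and some that they did not. Wsb1, a substrate receptor of a ubiquitin ligase, had 3617, 3606, 3275 and 3671 CPM in the inhibitor morulae, against 453 to 705 CPM (median 573) in the standard morulae. It was far above them (log2 change 2.62, SE 0.13, adjusted p = 4.8e-12) and above the no-pyruvate morulae at 457 to 587 CPM. Tmem41b, an ER lipid scramblase, averaged 7396 ± 389 CPM in the inhibitor morulae and 1399 ± 331 CPM in the standard morulae (SD, n = 4 and 6), and 1213 CPM in the no-pyruvate morulae. Fam122b, an inhibitor of protein phosphatase 2A, averaged 42.9 CPM in the inhibitor morulae, 45.2 CPM in the no-pyruvate morulae and 3.08 CPM in the standard morulae. Dazl, a germ cell RNA-binding protein, averaged 20.8, 28.8 and 2.75 CPM in the same order. Below the course stood Tet2, which oxidises methylcytosine, with 5.86, 5.98, 5.20 and 4.72 CPM in the inhibitor morulae, against 23.0 to 123 CPM (median 60.4) in the standard morulae. It was lower in every inhibitor library (log2 change -3.19, SE 0.33, adjusted p = 6.1e-08). Hdac2, a histone deacetylase, averaged 15.6 and 161 CPM (log2 change -3.34, SE 0.32).

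**Figure D3:**
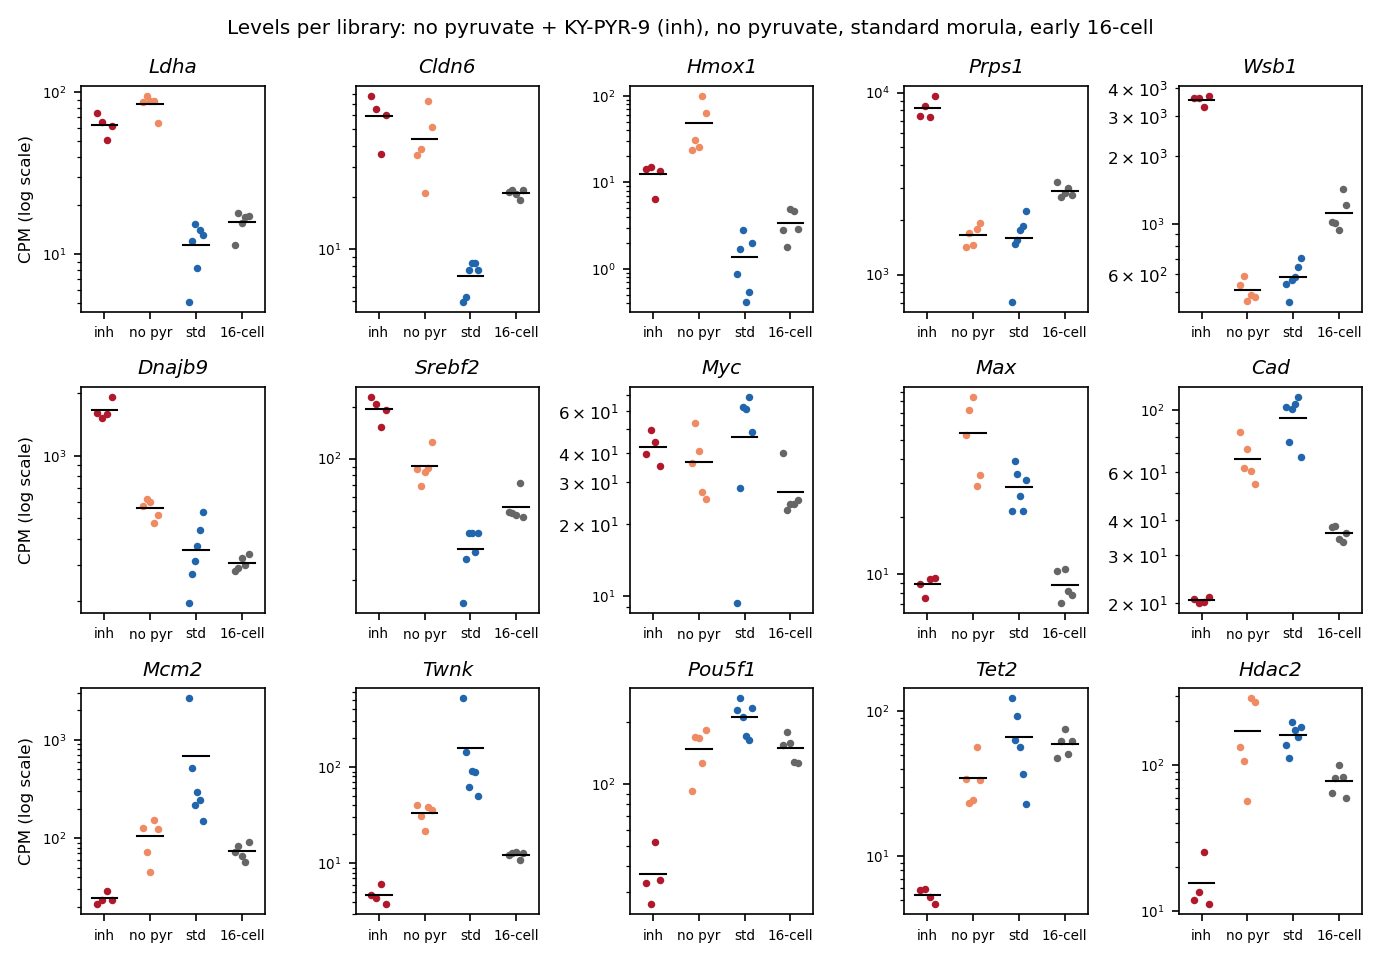
CPM of 15 genes on log axes, with 1 point per library and bars for group means, in inhibitor (inh), no-pyruvate (no pyr) and standard (std) morulae and early 16-cell embryos. Ldha, Cldn6 and Hmox1 are high in both groups without pyruvate, Prps1, Wsb1 and Dnajb9 stand highest with the inhibitor, and Cad, Mcm2, Twnk, Pou5f1, Tet2 and Hdac2 stand lowest there.

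Markers of other cell types were low throughout. Cumulus and granulosa markers summed to 9.23 to 15.9 CPM over 15 genes in the inhibitor libraries and to 19.0 to 49.0 CPM in the standard libraries. Amhr2 was the 1 gene of that list above the filter and made up most of the sum, with 12.1 and 32.9 CPM, and it fell (log2 change -1.29). Has2, Amh, Inha, Cyp19a1 and Fshr were at 0 in every inhibitor library. Sperm markers summed to at most 0.101 CPM in the inhibitor libraries and 0.447 CPM in the standard libraries, and none passed the filter. Blood cell markers summed to 5.67 to 9.84 CPM and to 1.29 to 8.55 CPM, almost all of it from alpha-globin genes, and 1 of 2 tested genes rose. Ptprc and Lyz2, of white blood cells, were at 0 in every inhibitor library.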

How the data were processed

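The deposited table holds CPM made by the authors, in which every library has nearly the same sum, plus a small offset (1e-04), from reads aligned with STAR 2.6.1d to mm10, per the submitters' processing notes and the values. Of 91 columns, 85 were matched to samples by name and 6 were not used, and 26 entries with numeric names were left out (0.0458 to 0.194% of a library). Whole reads could not be recovered (71.3 to 74.3% of low values lay within 0.1 of a whole number), so no count test was run. The relative SD from counting at 1 CPM is up to 25.1% in the inhibitor libraries. The fit was limma 3.58.1 in R 4.3.3 with a mean trend on log2(CPM + 1), over 20 libraries of 4 morula groups at 78 h (inhibitor, no pyruvate, no lactate and standard) that share 1 estimate of the spread, for genes above 1 CPM in at least 3 of them, at a Benjamini-Hochberg threshold of 0.05. Library values were compared by exact two-sided permutation. Missing Tdh in standard library 1 was left out. Simulated data were drawn from the standard means with 1 dispersion (0.06) and 200 changed genes. In them 77 of 100 genes changed 2-fold and 100 of 100 changed 4-fold were recovered, with 14 false calls among 13973 genes. The simulation held no shift of the typical gene and no outlying library, so it cannot give the error rate of the real comparison.

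Named genes are the 12 largest rises and 12 largest falls of at least 20 CPM without overlap, the MYC and pyruvate lists, and up to 5 members of at least 10 CPM of each other list, printed where a role is known, plus genes said to be picked later. The 33 lists, the genes and the alternatives were chosen with earlier results of these data known. Replicate numbers do not pair the samples: same-numbered libraries correlated at -0.098 to 0.121, and no inhibitor library did best with its own number. Copies of genes were found with BLAST 2.17.0 at 95% identity over 200 bases, on GENCODE vM21. Of 108 named genes 28 had such a copy, and not all of these are marked above. Some genes that the rule names are not reported here. Promoter windows came from RefSeq, which had entries for 88 of 108 named genes, 16 of them with CACGTG. Other work used Python 3.11.15, pandas 2.3.3, scipy 1.17.1 and matplotlib 3.10.9. Alternatives were 3 scalings, leaving out each library, leaving out standard libraries 1 and 2, a replicate block, a fit of the 2 groups by themselves, a pseudocount of 0.1 and no filter on low values.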

Additional observations from a re-analysis of the deposited data

Results flagged for a closer look

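For each named gene and group, the highest or lowest library was set against the gap to its nearest neighbour, and 30 of 222 groups tested held a library far from the others. Chance would give this in about 1 of 20 groups if the groups were independent. They are not, because they share the same libraries and many genes were picked for large changes.

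In the inhibitor morulae, library 3 stood high for Bag1 (25.9 CPM, the others at most 15.0), Slc1a5 (3.03), Esrrb (9.33) and Hdac2 (25.6), and low for Hmox1 (6.46) and Wsb1 (3275). Library 4 stood high for Odc1 (372.6 CPM), Mpc1 (940.3), Fdft1 (742.8) and Etfb (31.0), and low for Amd1 (482.8). Library 2 stood high for Sucla2 (140.6 CPM) and library 1 low for Hsp90aa1 (4006).

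In the standard morulae, library 1 stood apart most often. It was high for Mcm2 (2651 CPM, the others at most 512), Twnk (518.5), Tcf7l2 (223.2), Gsdme (155.5), CT010467.1 (746.2), Mnt (7.22), Mga (105.3) and Rps12 (27.8). It was also high for Manf (294.5 CPM), Keap1 (25.9), Hsph1 (242.4), Gabarapl1 (27.9) and Gata6 (238.9), and low for Glul (162.5). Library 2 was high for Mpc1 (1099 CPM) and low for Pes1 (37.0), and library 6 was high for Apex1 (257.7). Apart from Mga, each of these genes that passed the test kept its call and direction without standard library 1.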

How the results depend on the processing

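The count of 9518 genes past the threshold lay between 7535 and 10265 in the settings tried, but its split followed the scale. Higher and lower genes numbered 4406 and 3402 after median-ratio scaling, 3571 and 3964 after quantile scaling, 4025 and 3776 with the length trend removed, and 4559 and 3645 with median-ratio scaling and without standard libraries 1 and 2, a setting added after seeing the data. Against the no-pyruvate morulae, the 12139 genes became 7908, 6903 and 7368 under the 3 scalings. The replicate block gave 9218 genes, 1926 higher and 7292 lower, and the same-numbered libraries are not paired. Leaving out 1 library gave 8538 to 9984 genes. The difference in the mitochondrial share was 1.98 to 3.49 percentage points with 1 library left out, and was 3.40 and passed without standard replicate 1 (exact permutation p = 0.048).

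Of 108 named genes, 94 kept their side of the threshold, and their direction where they passed, under median-ratio scaling. Under quantile scaling 97 did so, and with the length trend removed 99. Signs turned for Mga (0.21 after median-ratio scaling, 0.53 without standard libraries 1 and 2 as well, and 0.11 after quantile scaling), Mpc2 (0.59 and 0.78, and 0.46 with the length trend removed) and Pdha1 (0.58 and 0.48, and 0.40 with the length trend removed). Mlxipl turned with the length trend removed (0.086) and Myc without standard libraries 1 and 2 (-0.50) or library 1 alone (-0.30). Without passing there, Mycn turned with the length trend removed (0.013) and with median-ratio scaling and without standard libraries 1 and 2 (0.029), and Mpc1 after quantile scaling (-0.05). The cause was not tested. Ldhb (0.62) and Mycn (-0.82) passed with the replicate block. With 1 library left out, calls ended for Mycl without inhibitor library 1 (-0.68), for Mga without standard libraries 1, 2 or 3 or any inhibitor library (-0.36 to -0.66), for Mlxipl without standard libraries 5 or 6 or inhibitor libraries 2 or 4 (-0.41 to -0.55), and for Slc2a3 without standard libraries 3, 4 or 5 or inhibitor libraries 1, 2 or 4 (-0.94 to -1.28).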

Other observations

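Of 27 genes of genome activation and the 2-cell burst, 6 rose and 1 fell, 3 and 1 of them in all 5 settings, with a median log2 change of 0.58 beside -0.51 over all genes. After median-ratio scaling 13 rose and 1 fell. Zfp54, a zinc finger gene, was the exception that fell, with 2.89, 2.96, 2.82 and 2.99 CPM in the inhibitor morulae, against 10.5 to 33.5 CPM (median 20.4) in the standard morulae and 33.2 to 44.3 CPM in the no-pyruvate morulae.

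Of 32 maternal oocyte transcripts 3 rose and 6 fell (median -0.20), or 6 and 3 after median-ratio scaling, 2 and 3 of them in all 5 settings. Zar1, a maternal RNA-binding protein, had 16.8, 13.2, 12.2 and 16.8 CPM in the inhibitor morulae, against 2.22 to 5.74 CPM (median 4.01) in the standard morulae, and rose by 1.74 on the log2 scale (SE 0.21, adjusted p = 4.9e-07). The no-pyruvate morulae averaged 10.7 CPM. Dppa3, which protects the maternal genome from demethylation, averaged 6447 ± 541 CPM in the inhibitor morulae and 2609.9 ± 1024 CPM in the standard morulae (SD, n = 4 and 6), with 6639 to 7289 CPM in early 16-cell embryos. Its rise of 1.40 was past the threshold on the CPM scale but not in all 5 settings.

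Tprgl and Ppp1r14b, among the 12 largest falls, averaged 3.96 and 3.06 CPM in the inhibitor morulae, against 74.0 and 47.4 CPM in the standard morulae. Both lay below every standard library from 66 to 90 h.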
